A study of Mus musculus with 2 samples.

Results

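The genes described here are 10 members of the Bcl2 family, chosen by name as the survival and death genes of this family, out of 20282 genes in the deposited matrix. Bcl2, Bcl2l1 and Mcl1 are the 3 survival members. The 7 death members are the effectors Bax and Bak1 and the 5 BH3-only genes Bcl2l11, Bbc3, Pmaip1, Bad and Bid. All 10 were found by symbol, and each was counted over 13683 cells of the thymus by deposited cluster and by library. The study asked what the small GTPase Cdc42 does in thymocyte development and profiled whole mouse thymus by droplet single-cell RNA sequencing of transcript 3′ ends. One library came from Cdc42f/f mice (WT), and the other from Cdc42f/f CD4Cre littermates (KO). Both groups carry the floxed allele, so the KO differs by the Cre, which is driven by Cd4 regulatory sequence and deletes exon 2 of Cdc42 from the double-positive (DP) stage on. Each library pooled 5 mice of 6 weeks of age, so there is 1 library per condition and no replicate: every interval below is a 95% interval that covers counting error only, and no test between conditions could be made.

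The Bcl2 family controls whether mitochondria release the factors that start the caspase cascade. Survival members hold the effectors Bax and Bak1 in check, BH3-only proteins bind survival members or engage the effectors, and activated effectors permeabilise the outer mitochondrial membrane. In the thymus, resting DP cells are known to depend on Bcl-xL, the product of Bcl2l1, and positively selected cells to gain Bcl2, while Bim, the product of Bcl2l11, is known for its part in the deletion of self-reactive thymocytes.

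The sequences just upstream of Bcl2, Bcl2l1 and Bcl2l11 are shown because these 3 members differed most between developmental stages. They are windows of 250 bases before the transcription start, printed 5′ to 3′ on the strand of the gene, from RefSeq on build GRCm38.p6. Capitals mark a match to a searched motif. For Bcl2l1, with 3 starts, and Bcl2l11, with 2, the window of the most upstream start is printed.
Bcl2, chr1:106714291-106714540, minus strand: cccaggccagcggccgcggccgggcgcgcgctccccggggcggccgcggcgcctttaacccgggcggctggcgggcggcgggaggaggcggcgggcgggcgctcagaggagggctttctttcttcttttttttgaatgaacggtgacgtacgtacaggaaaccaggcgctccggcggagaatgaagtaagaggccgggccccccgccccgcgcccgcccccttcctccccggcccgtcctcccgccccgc
Bcl2l1, chr2:152831729-152831978, minus strand: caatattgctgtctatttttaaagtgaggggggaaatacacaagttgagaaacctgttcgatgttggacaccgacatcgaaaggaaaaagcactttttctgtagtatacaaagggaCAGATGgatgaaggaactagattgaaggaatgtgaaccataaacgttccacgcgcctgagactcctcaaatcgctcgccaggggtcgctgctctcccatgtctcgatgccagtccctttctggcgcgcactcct
Bcl2l11, chr2:128125788-128126037, plus strand: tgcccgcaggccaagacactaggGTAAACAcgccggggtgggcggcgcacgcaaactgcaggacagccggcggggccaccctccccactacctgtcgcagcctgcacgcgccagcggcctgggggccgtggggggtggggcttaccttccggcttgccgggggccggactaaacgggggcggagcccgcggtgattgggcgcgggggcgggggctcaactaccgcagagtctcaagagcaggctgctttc
The motifs searched on both strands were AGGTCA (a core bound by nuclear receptors), CANNTG (the E-box), GTAAACA (a core of Foxo sites) and TTCNNNGAA (the Stat5 site). Among 32817 upstream windows of this length, 14.03%, 66.2%, 3.16% and 7.01% held them, respectively. The Bcl2 window held none of the 4, the printed Bcl2l1 window held 1 E-box, and the printed Bcl2l11 window held 1 Foxo core. The window of the other Bcl2l11 start held no match, each of the other 2 Bcl2l1 windows held 1 E-box, and the most downstream of these also held 1 AGGTCA match. The GC content was 74.8% for Bcl2, 47.6% for Bcl2l1 and 72.0% for Bcl2l11, against a median of 52.4% over all windows. A match is a description of letters only, and nothing on binding was measured here.

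The WT library held 6115 cells with 29706197 unique molecular identifiers (UMIs, the counted transcripts) and the KO library 7568 cells with 37920214, with medians of 3192 and 3401 UMIs per cell. Levels are given as the gene's UMIs per 1000000 UMIs of the same cells (CPM), which is not divided by gene length because only 3′ ends were counted. The 19 deposited clusters were read by their leading markers. Clusters 0 to 4 were led by Rag1 (DP cells), clusters 5 and 9 by Cd5, a gene raised by T cell receptor signals, cluster 6 by Itm2a (early single-positive, SP, cells) and cluster 7 by Ms4a4b (mature SP cells). These 4 are called stages below, an order that rests on markers only. The members were among the genes of the cells that were clustered, so differences between stages are a description. Cdc42 itself was at 358, 455, 397 and 447 CPM in the 4 stages of the WT library and at 320, 383, 383 and 581 in the KO library. Counting from 3′ ends does not see the loss of exon 2, so these values check no label. The 5 markers each of B cells, macrophages and thymic epithelium summed to at most 61.7, 47.5 and 23.3 CPM in any of these stages. The 5 dendritic cell markers reached 222 (WT) and 163 (KO) in the Ms4a4b stage and 140 and 71.2 in the Itm2a stage. Only 1 of them had 20 or more UMIs over both libraries in each of these stages. In each library 2 were at 0 in the Ms4a4b stage and 3 in the Itm2a stage. The 4 haemoglobin genes summed to 16.2 (WT) and 0.846 (KO) in the Rag1 stage. In total, 17 barcodes occurred in both libraries.

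The survival genes exchanged places between the Rag1 and Cd5 stages. Bcl2 (chromosome 1, 106538178 to 106714274 on GRCm38, minus strand) was at 12.1 CPM in the Rag1 clusters of the WT library, 264 in the Cd5 clusters, 435 in the Itm2a cluster and 286 in that of Ms4a4b. The Cd5 clusters were thus 21.9-fold above the Rag1 clusters (log2 ratio 4.45, interval 4.18 to 4.74). Bcl2l1 (chromosome 2, 152780668 to 152831728, minus strand) ran the other way, from 170 to 42.9, 35.7 and 17.6 CPM. It was 3.94-fold lower in the Cd5 than in the Rag1 clusters (log2 ratio -1.98, interval -2.32 to -1.67). Mcl1 (chromosome 3, 95658788 to 95663176, plus strand), a short-lived survival protein, was at 407, 374, 285 and 320 CPM and did not move by 2-fold at any step. Of the UMIs of Bcl2 and Bcl2l1 together, Bcl2 made up 6.6% in the Rag1 clusters, 86.0% in the Cd5 clusters, 92.4% in that of Itm2a and 94.2% in that of Ms4a4b of the WT library.

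**Figure D1:**
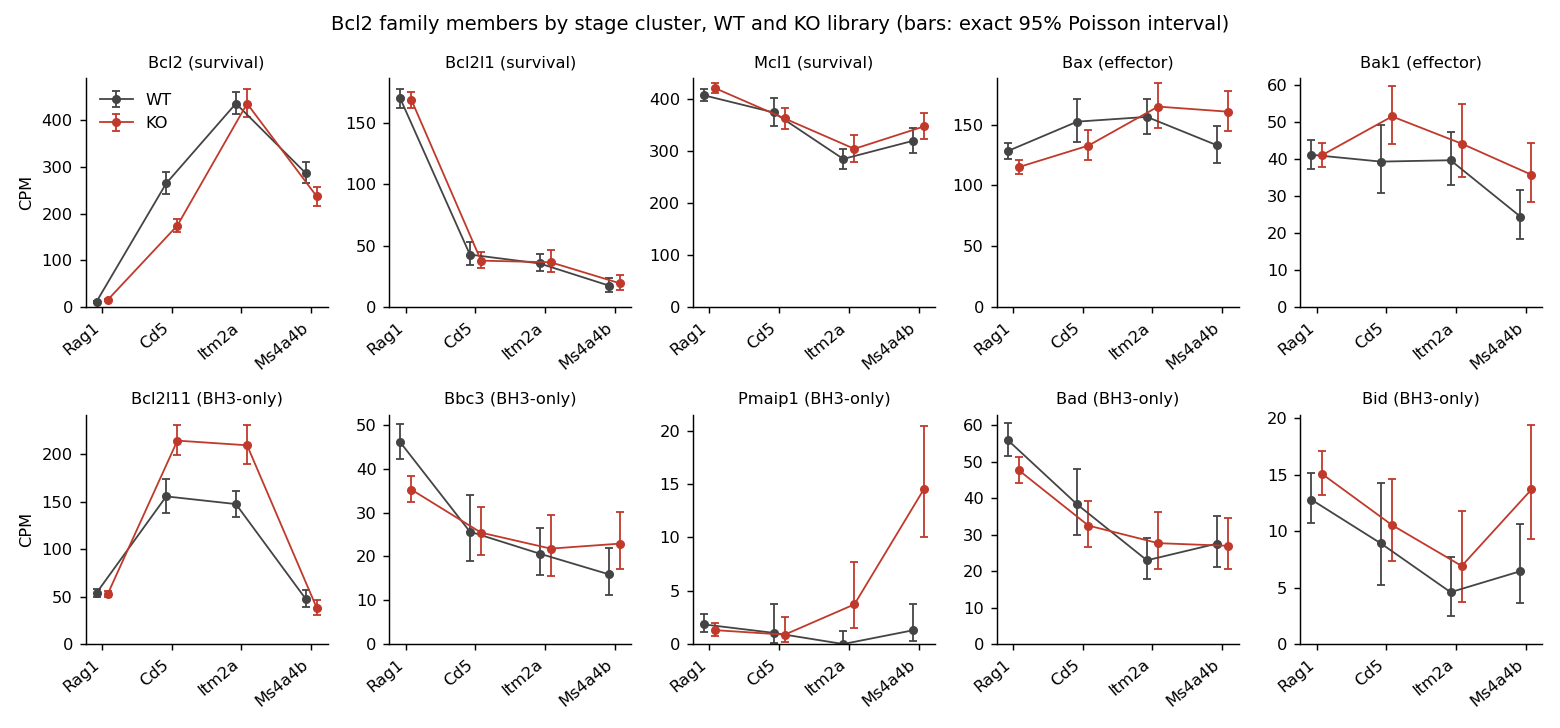
Level of each of the 10 members in CPM (y axis, its own scale in each panel) across the 4 stages (x axis) in the WT and KO libraries; error bars are 95% counting intervals, and each point is 1 library. Bcl2 goes from 12.1 to 264 between the Rag1 and Cd5 stages of the WT library while Bcl2l1 goes from 170 to 42.9.

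The same exchange was seen in the KO library. There Bcl2 was at 15.8, 175, 435 and 236 CPM, and Bcl2l1 at 169, 38.0, 36.7 and 19.4. Bcl2 was 11.1-fold higher in the Cd5 than in the Rag1 clusters of this library, a smaller step than in the WT library. The step that followed, to the Itm2a cluster, was larger in the KO library, with a log2 ratio of 1.32 (interval 1.16 to 1.47) against 0.72 (interval 0.57 to 0.87) in the WT library. Cells with UMIs of both genes were counted as well. Among the 535 WT cells of the Cd5 clusters, 26 had UMIs of both, 210 of Bcl2 only and 41 of Bcl2l1 only, and among the 843 KO cells the numbers were 42, 280 and 72. In the deeper cells of the Itm2a cluster, 56 of 479 WT cells had both and 23 Bcl2l1 only, and 34 and 12 of 316 KO cells did. Such counts are limited by depth. They were not set against the number expected if both genes were detected independently, so they do not show that cells hold one gene or the other.

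The effectors were nearly level through the stages. Bax (chromosome 7, 45461697 to 45466898, minus strand) was at 128, 152, 156 and 133 CPM from the Rag1 to the Ms4a4b stage of the WT library, and at 115, 133, 165 and 161 in the KO library. Bak1 (chromosome 17, 27019810 to 27029009, minus strand) was at 41.1, 39.3, 39.6 and 24.5 in the WT library and at 41.1, 51.5, 44.1 and 35.7 in the KO library. The only Bak1 step in the WT library whose interval lay away from 0 was the last, with a log2 ratio of -0.69 (interval -1.18 to -0.23).

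Of the BH3-only genes, Bcl2l11 had steps of more than 2-fold between neighbouring stages in both libraries. Bcl2l11 (chromosome 2, 128126038 to 128162547, plus strand) was at 53.8 CPM in the Rag1 clusters, 156 in the Cd5 clusters, 147 in the Itm2a cluster and 47.7 in that of Ms4a4b of the WT library. The first step was 2.89-fold (log2 ratio 1.53, interval 1.32 to 1.73) and the last a 3.08-fold lower level (log2 ratio -1.62, interval -1.94 to -1.33). In the KO library it was at 52.6, 214, 209 and 37.9, a 4.08-fold step up and a 5.49-fold step down. Bbc3 (chromosome 7, 16308393 to 16318205, plus strand), which encodes the p53 target PUMA, was highest in the Rag1 clusters and lower afterwards, at 46.1, 25.7, 20.6 and 15.9 CPM in the WT library. Bad (chromosome 19, 6941861 to 6951899, plus strand), whose product is held inactive by phosphorylation, was at 55.9, 38.2, 22.9 and 27.5. Bid (chromosome 6, 120891930 to 120916853, minus strand), which links death receptors to mitochondria after cleavage by caspase 8, was at 12.8, 8.90, 4.59 and 6.44. Pmaip1 (chromosome 18, 66458533 to 66465565, plus strand), which encodes the Mcl1-binding protein Noxa, had 20, 2, 0 and 3 UMIs in the 4 WT stages. A count of 0 in the Itm2a cluster allows up to 0.983 CPM, taking 3 UMIs as the floor. In the KO library Pmaip1 had 20, 3, 7 and 33 UMIs, and its step from 3.72 CPM in the Itm2a to 14.6 in the Ms4a4b cluster had a log2 ratio of 1.89 (interval 0.77 to 3.39). The share of Bcl2l11 among the UMIs of all 5 BH3-only genes went from 31.6% to 67.8%, 75.4% and 48.3% in the WT library, and from 34.6% to 75.6%, 77.7% and 32.7% in the KO library.

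Counted by a log2 ratio of at least 1 in size among genes with 20 or more UMIs over the stages compared, the step from the Rag1 to the Cd5 clusters of the WT library had 2 of 10 members higher (Bcl2 and Bcl2l11), where 5.99% of all 11512 genes were higher, and 1 member lower (Bcl2l1), where 9.12% of all genes were lower. From the Cd5 to the Itm2a clusters, 0 of 9 members passed in either direction, against 7.49% of genes higher and 7.55% lower. From the Itm2a to the Ms4a4b cluster, 0 of 9 members were higher, against 4.25% of genes, and 2 were lower (Bcl2l1 at -1.01 and Bcl2l11 at -1.62), against 6.13% of genes. Bcl2l1 lay just past that threshold.

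Across the 17 clusters with at least 100000 UMIs in the WT library, the order of levels differed by member. Bcl2 was highest in the Itm2a cluster in both libraries, and its interval there did not overlap that of the next cluster. The next were the Ms4a4b cluster, both Cd5 clusters and the Myl10 cluster (cluster 14), at 286, 265, 263 and 209 CPM in the WT library, whose neighbours in this order overlapped. Bcl2l1 was highest in the 5 Rag1 clusters, from 157 to 181 in the WT library and from 163 to 174 in the KO library. Their intervals overlapped, and the Lars2 cluster (cluster 8), of mitochondria-rich cells with few UMIs, overlapped them at 131 and 143. Mcl1 was at 397 to 419 CPM in the Rag1 clusters of the WT library, where Cd5 cluster 9 lay in the same range at 399.8, and lowest in the proliferating cluster 12, at 104 in the WT and 109 in the KO library. Bid was high in the proliferating clusters 10 to 13. It was at 29.8, 35.0, 37.4 and 34.7 CPM in these clusters of the WT library, and at 29.3, 37.8, 36.7 and 39.0 in the KO library, all above the 4 stages. The Cd74 cluster (cluster 15) was in the same range, at 31.8 and 28.4, while the small cluster 18, where the proliferation marker Top2a was at 1860 and 2239 CPM, had the lowest Bid, at 2.27 and 0. Bbc3 was at 4.39, 6.30 and 4.08 in clusters 10 to 12 of the WT library and at 21.8 in cluster 13. Bcl2l11 was at 179 in the Lars2 cluster of the WT library (52 UMIs), in the same range as its Cd5 and Itm2a clusters, and at 139 in the KO library, below them. That cluster had 18.6% and 15.7% mitochondrial UMIs, and medians of 956 and 1200 UMIs per cell. In the Myl10 cluster, Bcl2 was at 209 CPM in the WT and 290 in the KO library.

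**Figure D2:**
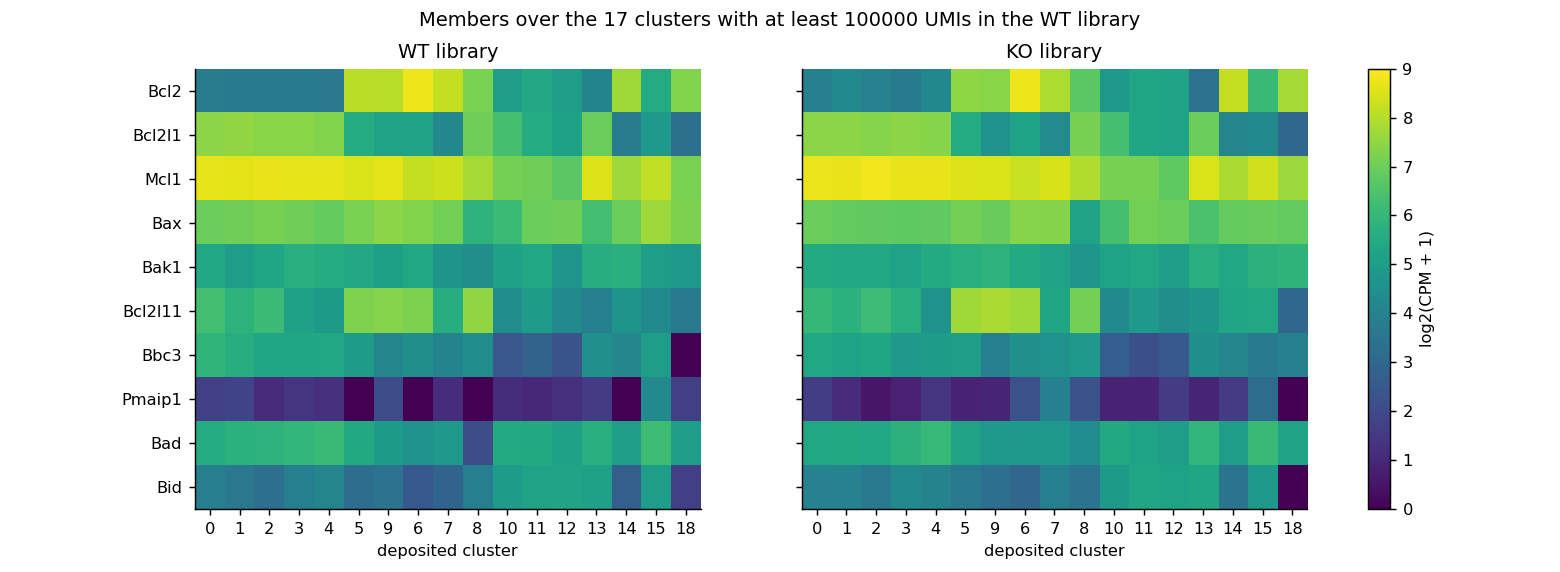
Level of each of the 10 members (rows) in the 17 clusters with at least 100000 UMIs in the WT library (columns, by deposited number), for the WT (left) and KO (right) library, coloured by log2 of CPM with 1 added; yellow is high and dark blue low. Bcl2 is brightest in cluster 6 (435 in both libraries), where Bcl2l1 is at 35.7 and 36.7, and Bid is brighter in clusters 10 to 13 than in the 4 stages.

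Between libraries, most members in the Rag1 and Cd5 stages differed by little. A gene was counted as different at a log2 KO over WT ratio of at least 0.5 in size with 20 or more UMIs in both libraries together. In the Rag1 clusters 0 of 10 members passed in either direction, where 7.44% of 12983 genes were higher and 3.08% lower in the KO library. Bcl2 was at 12.1 in the WT and 15.8 in the KO library (log2 ratio 0.38, interval 0.07 to 0.70). This was not even over clusters 0 to 4, where the ratios were 0.15, 0.68, 0.29, -0.07 and 0.63. Only the interval of cluster 1 (0.06 to 1.37) lay away from 0. Bbc3 was lower, at 46.1 and 35.3 (log2 ratio -0.39, interval -0.56 to -0.21), and so were Bad, at 55.9 and 47.6 (-0.23, interval -0.39 to -0.07), and Bax, at 128 and 115 (-0.16, interval -0.26 to -0.05). Pmaip1 had 20 UMIs in each library, at a log2 ratio of -0.50 just inside the threshold (interval -1.47 to 0.47). Mcl1 and Bcl2l1, the most abundant survival transcripts of DP cells, were at 407 and 421 and at 170 and 169.

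In the Cd5 clusters Bcl2 was lower and Bcl2l11 higher in the KO library. Bcl2 was at 264 CPM in the WT and 175 in the KO library, a log2 ratio of -0.60 (interval -0.77 to -0.43), and it was the 1 member of 9 past the threshold on the lower side, where 4.88% of 9854 genes were lower. No member passed on the higher side, where 9.38% of genes did. Bcl2l11 was at 156 and 214, a log2 ratio of 0.46 (interval 0.27 to 0.66) just inside the threshold. Both clusters showed these directions. Bcl2 had log2 ratios of -0.57 in cluster 5 and -0.65 in cluster 9, and Bcl2l11 of 0.46 in each. Bak1 was at 39.3 and 51.5 (0.38, interval -0.01 to 0.80) and Bax at 152 and 133 (-0.20, interval -0.41 to 0.02), both with intervals that include 0. Thus, of the UMIs of Bcl2l11 and Bcl2 together, Bcl2l11 made up 37.0% in the WT and 55.1% in the KO library. Markers of maturation also differed in these clusters. Itm2a was at 778 and 488 and Klf2 at 10.0 and 65.2 CPM, and the 7 markers of signalled cells summed to 4447 and 3936, with 0 higher and 1 lower past the same threshold and none at 0. The 5 early SP markers summed to 3031 and 2733, with 0 higher and 2 lower. The 7 DP markers summed to 3096 and 3636, with 2 higher and 0 lower, and the 8 late SP markers to 836 and 967, with 2 higher and 1 lower. The part of these marker differences in the Bcl2 and Bcl2l11 ratios was not tested.

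**Figure D3:**
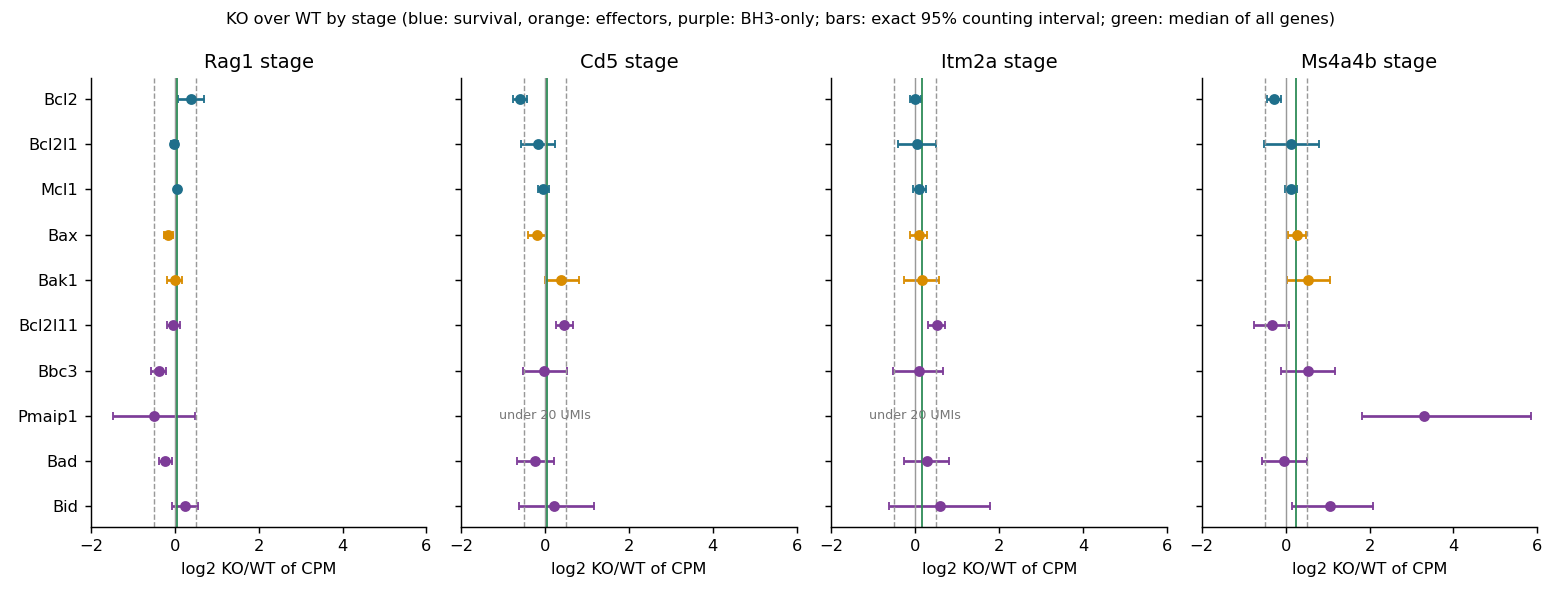
Log2 ratio of KO over WT for each member (points, coloured by role) in the 4 stages with 95% counting intervals; dashed lines mark the threshold of 0.5 in either direction and the green line the median of all genes, and members with under 20 UMIs are not drawn. Bcl2 lies at -0.60 in the Cd5 stage, Bcl2l11 at 0.46 in the Cd5 and 0.51 in the Itm2a stage, and Pmaip1 at 3.30 in the Ms4a4b stage.

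In the Itm2a cluster Bcl2 was alike in both libraries, at 435 CPM in each (log2 ratio 0.00, interval -0.13 to 0.13), and it was at -0.19 and -0.16 when libraries were scaled by TMM or DESeq2 factors. Bcl2l11 was again higher in the KO library, at 147 and 209 (0.51, interval 0.31 to 0.70). With Bid, at 14 and 13 UMIs (0.59, interval -0.62 to 1.79), it made 2 of 9 members higher, where 15.8% of 9790 genes were higher, and 0 members were lower, where 6.68% of genes were. The median log2 ratio of all genes was 0.16 here and that of ribosomal protein genes -0.42, so that a ratio is read against a shifted centre. Relative to that median Bcl2l11 was at 0.35 and neither member passed. Mcl1 was at 285 and 305, Bax at 156 and 165, and Bak1 at 39.6 and 44.1, all with intervals that include 0. Pmaip1 had 0 UMIs in the WT and 7 in the KO library, in 5 cells, which is at least 3.78-fold higher against the floor of 3 UMIs. Ccr9 was at 856 and 1384 and Ms4a4b at 323 and 137 in this cluster. The 8 late SP markers, Ms4a4b among them, were nearly level in sum, at 1816 and 1736, with 1 higher and 2 lower. The early SP markers summed to 2761 and 3795, with 3 of 5 higher and 1 lower, and none at 0. The signalled markers summed to 3185 and 4059, with 2 of 7 higher, the DP markers to 1197 and 1273, with 4 of 7 higher, and the gamma-delta markers to 30.1 and 65.4, with 3 of 4 higher. Their part in the Bcl2l11 difference was not tested.

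The Bcl2l11 difference in the Itm2a cluster was not even over its cells. At the finest deposited resolution this cluster divided into an early part of 142 WT and 160 KO cells, a later part of 316 and 132 cells, and a group of 43 cells, 20 WT and 23 KO, that was led by Ikzf2, Gadd45b, Srgn and Tnfrsf9 and is called the Tnfrsf9 group. In the early part Bcl2l11 was at 173 CPM in the WT and 146 in the KO library (log2 ratio -0.24, interval -0.60 to 0.12). In the later part it was at 107 and 154 (0.53, interval 0.20 to 0.84). In the Tnfrsf9 group it was at 748 and 1087 (99 and 134 UMIs), above its level in each of the 17 clusters, beside Bcl2 at only 98.3 and 89.2 and Bax at 325 and 268. In that group, Bcl2l11 made up 88.4% and 92.4% of the UMIs of Bcl2l11 and Bcl2. Nr4a1 and Nr4a3, receptor-induced nuclear receptors, were at 630 and 258 CPM in the group and at 72.5 and 16.6 in the rest of the Itm2a cluster. Without the 40 cells of this group that belong to the Itm2a cluster, Bcl2l11 was at 123 and 149 (0.27, interval 0.04 to 0.50).

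**Figure D4:**
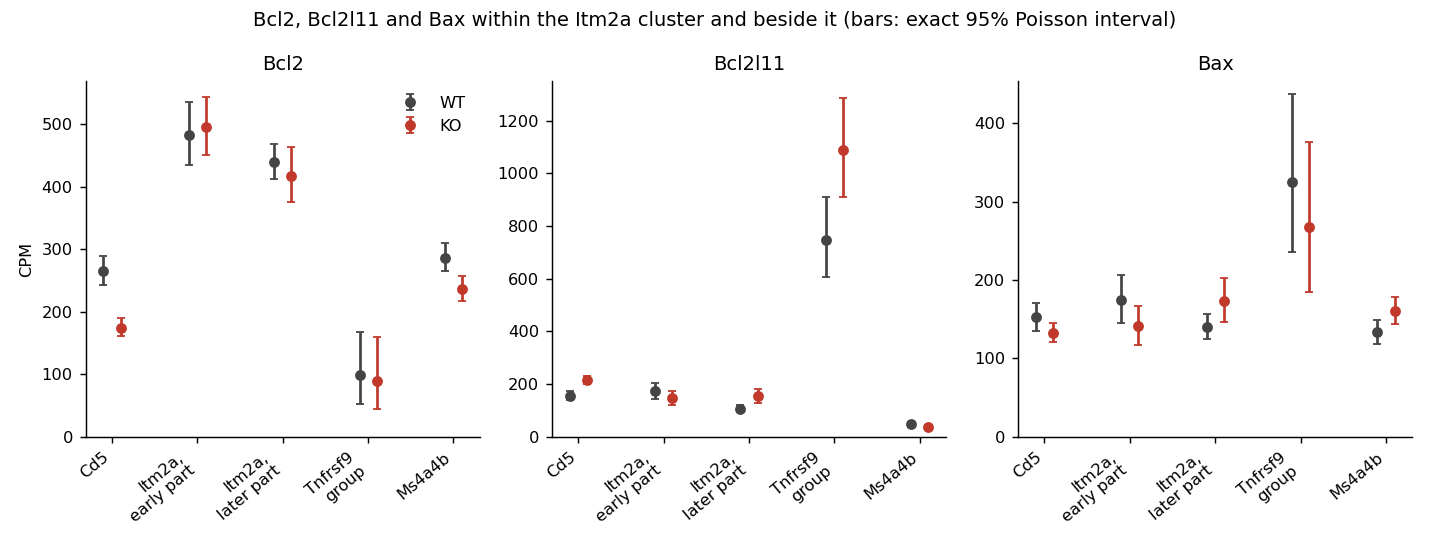
Levels of Bcl2, Bcl2l11 and Bax in CPM in the early part, the later part and the Tnfrsf9 group of the Itm2a cluster, with the Cd5 and Ms4a4b stages beside them, for the WT and KO libraries with 95% counting intervals. Bcl2l11 reaches 748 and 1087 in the Tnfrsf9 group, where Bcl2 is at 98.3 and 89.2.

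In the Itm2a cluster a small number of cells held most Bcl2l11 transcripts. There, 27 of 479 WT cells had 5 or more Bcl2l11 UMIs and held 313 of its 450 UMIs (69.6%), and 25 of 316 KO cells held 260 of 394 (66.0%). In the Cd5 clusters, 16 of 535 WT cells held 123 of 297 UMIs (41.4%) and 43 of 843 KO cells held 363 of 733 (49.5%). In the Ms4a4b cluster such cells held 17.1% and 5.81%, and no cell of the Rag1 clusters reached 5 in either library. Thinned to 1000 UMIs per cell, with shallower cells left out (3 WT and 5 KO cells in the Cd5 clusters), 10.7% of WT and 13.01% of KO cells of the Cd5 clusters had a Bcl2l11 UMI (22.2% and 30.2% before thinning), and 5.22% and 5.29% of the Rag1 clusters. The intervals in the Cd5 clusters, 8.22% to 13.7% and 10.8% to 15.5%, overlapped. For Bcl2 the thinned shares were 18.8% (interval 15.6% to 22.4%) of WT and 12.2% (10.0% to 14.6%) of KO cells in the Cd5 clusters, against 44.1% and 38.2% before thinning. The Rag1 clusters, where Bcl2 is least abundant, had 1.08% and 1.49%, and the median depths were 2823 and 3097 UMIs per cell there against 3402 and 3775 in the Cd5 clusters.

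In the Ms4a4b cluster Pmaip1 was higher and Bcl2 lower in the KO library. The members past the threshold were Bak1, at 24.5 and 35.7 CPM (log2 ratio 0.54, interval 0.04 to 1.06), Bbc3, at 15.9 and 22.9 (0.52, interval -0.11 to 1.18), Bid, at 6.44 and 13.7 (1.06, interval 0.15 to 2.08), and Pmaip1. These are 4 of 10 members, where 27% of 9586 genes were higher, and after thinning each cell to 1000 UMIs the count was 0, with Pmaip1 at 3.65 and Bak1 at 1.33 but under 20 UMIs each. With the counts as deposited, 0 members were lower, where 7.03% of genes were. The median of all genes was 0.24 in this cluster and that of ribosomal protein genes -0.47. Pmaip1 had 3 UMIs in the WT and 33 in the KO library, or 1.29 and 14.6 CPM. This is an 11.3-fold difference with a counting interval of 3.54 to 57.6. The 33 UMIs lay in 25 of 396 cells, with at most 3 in a cell. Thinned, 0.302% of WT and 1.26% of KO cells had a Pmaip1 UMI (0.904% and 6.31% before thinning). Bcl2 was at 286 and 236 (-0.28, interval -0.44 to -0.11), and Bax at 133 and 161 (0.27, interval 0.05 to 0.49). With TMM factors Bcl2 was at -0.54 and Bax at 0.0062. Bcl2l11 was at 47.7 and 37.9 (-0.33, interval -0.75 to 0.09), with an interval that includes 0. Relative to the median of all genes, Bak1 (0.30) and Bbc3 (0.29) no longer passed, Bid (0.82) and Pmaip1 (3.06) did, and Bcl2 (-0.51) and Bcl2l11 (-0.57) passed as lower. Markers of cell types also differed between the libraries in this cluster. Klf2 was at 679 and 1626 and S1pr1 at 261 and 643 CPM, and the 8 late SP markers summed to 4199 and 6057, with 3 higher and 0 lower. The 7 DP markers summed to 1196 and 1455, with 5 higher and 0 lower. The 5 early SP markers summed to 685 and 694, with 1 higher, and the 7 signalled markers to 1042 and 960, with 1 higher and 3 lower. The 4 gamma-delta markers summed to 163 and 337, with 3 higher, and the 4 regulatory T cell markers to 429 and 230, with 3 lower and Foxp3 at 0 in the KO library. Median depth was 6737.5 and 5032 UMIs per cell. Whether these bear on the members' ratios was not tested.

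Survival genes were set against death genes as the share of Bcl2, Bcl2l1 and Mcl1 in the UMIs of all 10 members. In the WT library the share was 63.4% in the Rag1 clusters (interval 62.5% to 64.4%), 61.8% in the Cd5 clusters (59.7% to 63.9%), 65.9% in that of Itm2a (64.3% to 67.4%) and 70.9% in that of Ms4a4b (68.9% to 72.8%). In the KO library it was 66.3% (65.5% to 67.1%), 55.2% (53.5% to 56.8%), 61.9% (59.9% to 63.8%) and 65.9% (63.8% to 67.9%). The KO share was thus higher in the Rag1 clusters and lower in the other 3 stages, and within each stage the intervals of the libraries did not overlap. Within the Itm2a cluster this did not hold throughout. The early part was at 65.6% in the WT and 67.5% in the KO library. The later part was at 69.2% (67.3% to 71.1%) and 64.3% (61.3% to 67.2%), with no overlap, as in the whole cluster. Without the Tnfrsf9 group the intervals overlapped, at 68.2% (66.6% to 69.8%) and 65.8% (63.8% to 67.9%). Mcl1 alone supplied many of these UMIs. Without it the shares were 34.9%, 42.2%, 54.6% and 54.3% in the WT library and 37.5%, 31.2%, 49.6% and 45.0% in the KO library, with the same order of the libraries in each stage. In the proliferating clusters 10 to 12, the share was 55.0%, 43.8% and 40.1% in the WT and 53.8%, 43.5% and 41.8% in the KO library, below all 4 stages of the same library. In the KO library the interval of cluster 10 (51.4% to 56.2%) overlapped that of the Cd5 clusters. Low shares were not particular to these clusters. The Cd74 cluster was at 46.4% and 55.6%, and cluster 16 at 44.4% and 46.9%, of only 27 and 49 UMIs. The other clusters with high Top2a were not alike. Cluster 13 was at 67.5% in the WT and 63.9% in the KO library. Cluster 18 was at 65.2% in the KO library but at 58.1% (interval 51.5% to 64.4%) in the WT library, below all 4 WT stages. Cluster 17, where Top2a was at 892 and 1233 CPM, was at 22.2% and 32.0%, of only 9 and 25 UMIs. In the Tnfrsf9 group the survival share was 23.9% and 24.3%.

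**Figure D5:**
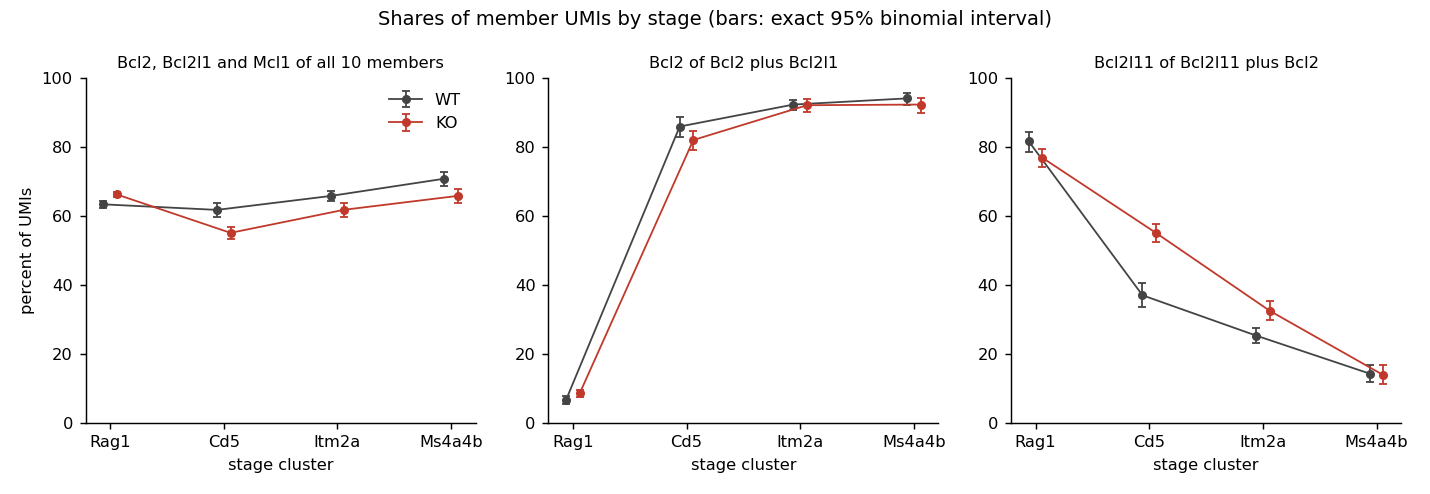
From left to right, the share of the survival genes in the UMIs of the 10 members, of Bcl2 in those of Bcl2 and Bcl2l1, and of Bcl2l11 in those of Bcl2l11 and Bcl2, in percent, by stage and library with exact 95% binomial intervals. The survival share of the KO library is at 55.2% in the Cd5 stage, where the WT library is at 61.8%.

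SP cells were also sorted by coreceptor UMIs, as cells with Cd4 and no Cd8a or Cd8b1 UMIs or the reverse. In the Itm2a cluster, Bcl2 was at 471 CPM in 130 WT CD4 cells and 362 in 139 WT CD8 cells, and at 664 in 78 KO CD4 cells and 254 in 65 KO CD8 cells. The level in the whole cluster was equal in both libraries. Among the sorted cells, Bcl2 was higher in KO CD4 cells (log2 KO over WT 0.50, interval 0.28 to 0.71) and lower in KO CD8 cells (-0.51, interval -0.86 to -0.17). The log2 ratio of CD8 over CD4 was -0.38 (interval -0.59 to -0.17) in the WT and -1.38 (-1.74 to -1.05) in the KO library. Bcl2l11 was at 133 and 155 in WT CD4 and CD8 cells and at 244 and 223 in the KO cells, higher in the KO library in both. Bax was at 158 in WT and 245 in KO CD8 cells (log2 ratio 0.64, interval 0.24 to 1.03). In CD4 cells it was at 178 and 161 (-0.14, interval -0.55 to 0.25). The survival gene Bcl2l1 was also higher in KO CD8 cells, at 17.3 and 39.4 CPM from 16 and 14 UMIs (1.20, interval 0.05 to 2.32). Its ratio in CD4 cells was -0.39 (interval -1.35 to 0.47). For Bcl2l1 in the Ms4a4b cluster, the ratio was 1.65 (interval 0.22 to 3.39) in CD8 cells, from 6 and 13 UMIs. It was -1.40 (interval -4.92 to 0.77) in CD4 cells there. In the Ms4a4b cluster Bcl2 was at 287 and 352 in WT CD4 and CD8 cells and at 240 and 242 in the KO cells, with log2 KO over WT ratios of -0.26 (interval -0.64 to 0.11) in CD4 and -0.54 (-0.85 to -0.24) in CD8 cells. The KO CD4 cells were thus above the WT ones in the Itm2a cluster but not in the Ms4a4b cluster. Cells with UMIs of both coreceptors, or of none, entered neither class. The classes held 130 and 139 of 479 WT cells and 78 and 65 of 316 KO cells of the Itm2a cluster. The level of the whole cluster is therefore not that of these classes alone.

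The other genes of the death pathway were counted from lists chosen by name, at the same threshold, in the Itm2a cluster and then the Ms4a4b cluster, and up to 2 highest and 2 lowest with at least 50 UMIs are named with their log2 KO over WT ratios. The background shares given above for all genes, 15.8% higher and 6.68% lower in the Itm2a cluster and 27% higher and 7.03% lower in the Ms4a4b cluster, hold for these counts too. In the Itm2a cluster, 2 of 14 caspase and apoptosome genes were higher, near the share of all genes, and 2 lower. The lowest was Endog, a mitochondrial nuclease, at -0.94, and the highest were Casp6 at 0.59 and Apaf1, the apoptosome scaffold, at 0.41. Of 6 further Bcl2 family genes, 0 were higher and 2 lower, Bcl2a1d at -1.48 and Bcl2a1b at -0.96. These survival genes of the A1 group are near-identical copies, and how reads were divided between them is uncertain. Bcl2l12 at 0.31 and Bnip3l at 0.03 were the highest. Of 8 inhibitors 1 was higher, Birc5, which is also a mitotic gene, at 1.55 from 18 and 33 UMIs. Birc2 was at 0.35, Birc6 at 0.00 and Xiap, which blocks caspases, at -0.08. Of 8 death receptor genes 0 were higher and 2 lower, with Tnfrsf1b at -0.999, Tnfrsf1a at -0.04, Fas at 0.36 and Tradd at 0.46. Of 8 p53 targets 1 was higher, Zmat3 at 0.59, and 1 lower, while Sesn1 was at 0.49, Mdm2 at 0.12 and Aen at 0.03. Of 13 regulators 3 were higher and 1 lower. Foxo3, a known activator of Bcl2l11, was at 0.58, Gfi1 at 0.58, Myc at -0.44 and Il7r, the receptor through which interleukin 7 sustains Bcl2, at -0.41.

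In the Ms4a4b cluster the p53 targets stand beside Pmaip1 and Bbc3, which p53 is known to induce. Of 7 further p53 targets 2 were higher, close to the 27% of all genes, Zmat3 at 0.99 (interval 0.21 to 1.84) and Aen at 0.66 (interval 0.13 to 1.21). Ei24 was the 1 that was lower, at -0.52 (interval -1.09 to 0.02), Mdm2 was at 0.02, and the list's median was 0.12 against 0.24 for all genes. Of 12 regulators 2 were higher, among them Tcf7 at 0.54, and 2 lower, among them Nr4a1 at -0.79, while Il7r was at -0.28. Of 6 further Bcl2 family genes 1 was higher and 2 lower, with Bcl2a1b at -1.77, Bcl2l12 at -0.18, Bnip3l at -0.06 and Bcl2l13 at 0.68. Of 15 caspase and apoptosome genes 0 were higher and 1 lower, Endog at -0.74, with Htra2 at -0.39, Diablo at 0.24 and Apaf1 at 0.27. Of 7 inhibitors 1 was higher, Birc3 at 0.60, with Api5 at -0.08, Dad1 at 0.02 and Xiap at 0.20. Of 9 death receptor genes 1 was higher, Ripk1 at 0.74, and 2 lower, Tnfsf10, the ligand TRAIL, at -0.81 and Tnfrsf1b at -0.63, with Ripk3 at 0.28. In the Rag1 clusters the p53 targets had 0 of 9 higher and 2 lower, where 7.44% of all genes were higher and 3.08% lower. Their median was -0.11 against 0.05 for all genes. In the Cd5 clusters 0 of 8 passed in either direction, where 9.38% of all genes were higher and 4.88% lower.

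The genes whose levels over the 17 clusters were most like those of each member were found by Pearson's r of log2 levels with 10 added, among 8950 genes of the WT library. The clusters share their library and differ in depth, so these are descriptions. Nearest to Bcl2 were Chd3 (r 0.92 in the WT and 0.91 in the KO library) and Gpr65 (0.92 and 0.95), and nearest to Bcl2l1 were Gtf2h4 (0.97 and 0.96) and Rmnd5a (0.97 and 0.95). Nearest to Bcl2l11 were Dnmt3a (0.97 and 0.86) and Homer1 (0.94 and 0.89), to Mcl1 Idnk (0.97 and 0.87) and Apbb1ip (0.95 and 0.89), and to Bbc3 Ypel5 (0.94 and 0.88) and Furin (0.93 and 0.65). Bax was nearest to Gmppb (0.89 and 0.23) and Bak1 to Dnal4 (0.85 and 0.03). The genes were chosen by r in the WT library, so that a lower r in the KO library follows in part from the choice. Bad was nearest to Dctn3 (0.93 and 0.64) and Dazap2 (0.93 and 0.70), and Bid to Clic4 (0.83 and 0.37) and Igsf8 (0.80 and 0.79). Also near Bax was Atp6v1f (0.88 and 0.77), and near Bak1 Copb1 (0.85 and 0.61). Pmaip1, with 43 UMIs in the whole WT library, was too sparse for such a reading. Between members, Bcl2 and Bcl2l1 had r of -0.74 and -0.78, and Mcl1 and Bbc3 of 0.87 and 0.88.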

How the data were processed

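UMI counts per gene and cell were taken from the matrix the authors deposited, with clusters from their cell metadata. Per the labels, reads were processed with Cell Ranger 3.0.2 and STAR on mm10 and clustered with Seurat. The authors removed cells with too few or too many genes or with too many reads, and the cells left had 498 to 45349 UMIs in the WT and 500 to 47064 in the KO library. Cell names carry Cdc45 where the labels have Cdc42, and libraries were assigned from WT or KO in the name. Counts were summed by cluster (resolution 1.5, 19 clusters) and library and divided by the summed UMIs of all genes, times 1000000. Intervals are exact, Poisson for levels, conditional binomial for ratios and Clopper-Pearson for shares, and cover counting error only. Log2 ratios had 0.5 added to both sums, and genes with at least 20 UMIs were counted as different at 0.5 (libraries) or 1 (stages). No p-value was computed, since each condition has 1 library. Scripts used Python 3.11.15, numpy 2.4.6, scipy 1.17.1, pandas 2.3.3 and scanpy 1.11.5, with factors from edgeR 4.0.16 and DESeq2 1.42.0 in R 4.3.3 as alternatives, and ratios were tested on simulated data. A doublet caller marked 2 of 6115 WT and 0 of 7568 KO cells and was taken not to have worked, so doublets were not removed and the highest-scoring cells were left out only as an alternative. All 10 members were named. The members, lists, stages and thresholds were chosen with earlier results of these data known. Positions are from GENCODE vM21 on GRCm38. Of the members, 9 had an upstream window, and Pmaip1 is shown by position and counts alone. From each further list the genes with the 2 highest and 2 lowest ratios and at least 50 UMIs were to be named, and 2 of them are not reported here.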

Additional observations from a re-analysis of the deposited data

Results flagged for a closer look

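Bcl2 differed between libraries in opposite directions by stage. The log2 ratio of KO over WT was 0.38 in the Rag1 clusters, -0.60 in the Cd5 clusters and -0.28 in the Ms4a4b cluster, and each counting interval lay away from 0. Of the Rag1 clusters taken singly, only cluster 1 (0.68, interval 0.06 to 1.37) had such an interval, and cluster 3 was at -0.07. Bax also differed in opposite directions, at -0.16 in the Rag1 clusters and 0.27 in the Ms4a4b cluster. In the latter the median of all genes was 0.24 and the Bax ratio was 0.0062 with TMM factors. With 1 library per condition the difference between stages was not tested.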

How the results depend on the processing

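The Bcl2 ratios between libraries in the Cd5 and Ms4a4b clusters, and the Pmaip1 ratio in the Ms4a4b cluster, kept their direction under every alternative run. Bcl2l11 in the Itm2a cluster, at 0.51, was -0.24 in its early part alone and 0.27 without the Tnfrsf9 group (both chosen after seeing the data). The step of Bcl2 from Rag1 to Cd5 clusters in the WT library was 4.97, and that of Mcl1 0.00528 in place of -0.12, after thinning to 1000 UMIs per cell. Counts of members past the threshold were small and moved easily. Between libraries, the 0 in the Rag1 clusters became 1 with totals without ribosomal and mitochondrial genes, TMM or DESeq2 factors, thinning, cells over 10% mitochondrial UMIs left out, resolution 1.8 or 2, or ratios relative to the median. The 1 in the Cd5 clusters became 3 after thinning or in cluster 9 alone and 2 at resolution 1.8 or 2. The 2 in the Itm2a cluster became 0 with those totals, TMM or DESeq2 factors, leaving out the deepest 5% of cells, resolution 1.8 or 2, ratios relative to the median or without the Tnfrsf9 group, and 1 with means over cells, thinning, at least 50 UMIs or the early part alone, where it was Bcl2l1 on the lower side (-0.78), while the later part had 3 higher, Bcl2l1 (0.63) among them. The share of all genes past the threshold was not counted in the early or the later part. In the later part the median of all genes was 0.17. Relative to it, Bcl2l1 (0.46), Bcl2l11 (0.35) and Bbc3 (0.41) did not pass. The 4 in the Ms4a4b cluster became 2 with those totals or at least 50 UMIs and 0 after thinning. Between stages of the WT library, the 0 from Cd5 to Itm2a became 1 with means over cells or thinning, and the 2 from Itm2a to Ms4a4b became 1 with those totals, TMM or DESeq2 factors, 1 added to the sums or ratios relative to the median. The survival share moved from 63.4% to 62.4% in the WT Rag1 clusters with means over cells, and in the Itm2a cluster to 68.2% (WT) and 65.8% (KO) without the Tnfrsf9 group. Without Mcl1 it was 34.9%, 42.2%, 54.6% and 54.3% across the WT stages and 37.5%, 31.2%, 49.6% and 45.0% across the KO stages. The cause was not tested. No paired analysis was possible because each condition has 1 library. Of 274 alternative values for these summaries 226 stayed within their bounds. Depth limits Pmaip1 and Bid most, with 0 to 33 UMIs per library in the 3 later stages for Pmaip1 and 13 to 36 for Bid.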
